A study of Homo sapiens with 22 samples.

Results

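The 1000 sites described here are the strongest peaks of estrogen receptor alpha (ESR1) in one library of wild-type Ishikawa cells that had received only solvent, the DMSO library of clone 1, replicate 2. They were taken by signal value, with ties broken by the −log10 p, from the 29117 peaks of that list on chromosomes 1 to 22 and X. The 20 lists of the series held 356467 peaks in all. The sites were thus chosen by their signal value in that list, and their values in it are a description only. Their presence, rank and width in the other 19 lists were not used in the choice. The list stood out by length, with 29118 peaks including 1 on chromosome Y. The other wild-type DMSO lists held 51 (clone 1, replicate 1), 45 (clone 2, replicate 1) and 1080 peaks (clone 2, replicate 2).

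ESR1 is a nuclear receptor that binds DNA mainly at estrogen response elements once estradiol (E2) occupies its ligand-binding domain, and it also reaches chromatin through other factors. In the endometrium it drives growth in response to estrogen. D538G is a substitution in the ligand-binding domain, known from hormone-treated breast cancer and from endometrial cancer for receptor activity in the absence of hormone. Ishikawa is a cell line from an endometrial adenocarcinoma.

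All clones carried a FLAG epitope on ESR1, and an anti-FLAG antibody was used for the precipitation. The 2 wild-type and 3 D538G clonal lines each gave 2 replicates of either treatment, so wild-type ESR1 had 4 E2 and 4 DMSO libraries and the D538G receptor had 6 of each. Cells of every group had spent at least 5 days in medium without phenol red and with stripped serum, then received 10 nM E2 or 0.1% DMSO for 1 h. Each group rests on a few clones, the labels do not say what separates replicates 1 and 2, and p-values measure the spread between these libraries only. The 2 input libraries were not used here, and the read depth behind a list is unknown.

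The peak names of one list stood against its label. In D538G clone 2, replicate 1, the peak names in the deposited files hold the word "Ctl" in both the DMSO list and the list labelled E2. In the other 2 D538G clones and the wild-type clones the replicate 1 names carry that word, in either case, in the DMSO lists and not in the E2 lists. The 2 lists of this pair are called "labelled E2" and "labelled DMSO" below, and the group means, the counts over D538G lists and the tested differences are given without them too, here or in the closing section. A second D538G pair stood apart by its lengths: in clone 3, replicate 2 the E2 list had 49223 peaks and the DMSO list 1619, while in clones 1 and 2 of that replicate the DMSO list was the longer (50382 against 6542 and 54903 against 1977). Its peak names match its labels, and the difference it bears on most is given without it too. The labels were kept as deposited.

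Within their own list the 1000 sites had signal values from 29.4 to 124 with a median of 33.4, against a median of 12.8 over all 29117 peaks. Their median width was 740.5 bp (range 284 to 3457), against 393 bp over all peaks. At the limit, the sites ranked 999 and 1000 (chr17:7155043-7156095 and chr21:46932952-46934032, hg19) both had a signal of 29.42. The first peaks left out (chr14:69658053-69658802 and chr1:28908001-28908803) had 29.42 and 29.41, so the limit of 1000 falls in a continuous run of values. The sites lay on all autosomes and 1 lay on X. Chromosome 1 held 133 of them (13.3%, against 11.1% of all peaks of the list) and chromosome 19 held 105 (10.5%, against 7.92%). Chromosome 17 held 77 (7.7%, against 7.05%) and chromosome 16 held 73 (7.3%, against 4.99%). The median gap between neighbouring sites was 513921 bp. Of 977 gaps 41 were at most 10 kb and 221 at most 100 kb. Gaps were not counted over all peaks of the list.

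The first question was where else these 1000 sites carried a peak, counted as an overlap of at least 1 bp. Every site had a peak in at least 1 other list, while 2.40% of all peaks of the source list had none elsewhere. All 1000 had one in at least 1 D538G list, which 97.0% of all peaks of the source list did, and 946 (94.6%) had one in at least 2 of the 6 D538G DMSO lists, against 70.8% of all peaks. Both counts were the same without the clone 2 pair of replicate 1 (all peaks 70.8% for the second). The median site had a peak in 8 of the 19 other lists (interquartile range 7 to 14), or in 7 of 17 without that pair. A peak in all 19 was found at 10 sites (1%, against 0.0481% of all peaks). By contrast, 8 sites (0.8%, against 18.2% of all peaks) had no peak in any other wild-type list.

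The nearest partner is the E2 library of the same clone and replicate number. Of the 1000 sites, 99.2% had a peak in that list (background over all peaks of the source list 81.0%), and 97.5% had one in the E2 replicate 2 list of wild-type clone 2 (background 70.4%). The E2 replicate 1 lists held far fewer: 34.9% in clone 1 (background 9.62%) and 30.2% in clone 2 (background 6.87%). They were also shorter, with 8206 peaks in clone 1 and 5757 in clone 2, against 35344 and 31108 in replicate 2. The 4 wild-type E2 lists thus fell into 2 high and 2 low values by replicate number, which here goes with list length. They averaged 65.5% ± 38.0 (SD, n = 4).

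In the other wild-type DMSO lists the shares were 1.6% in clone 1, replicate 1 (background 0.127%), 1.8% in clone 2, replicate 1 (background 0.120%) and 30.2% in clone 2, replicate 2 (background 3.19%). These shares are capped by the length of the lists. Read the other way, 17 of the 51 peaks, 18 of the 45 and 319 of the 1080 lay at one of the 1000 sites. Of the same 3 lists, 82.4%, 86.7% and 89.4% of peaks lay at some peak of the source list. Most peaks of each shorter wild-type DMSO list thus lay in the long one, and its peaks lay at the 1000 DMSO sites and at the 1000 strongest E2 sites, described below, in shares of 33.3% and 27.5%, 40.0% and 33.3%, and 29.5% and 59.9%.

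**Figure D1:**
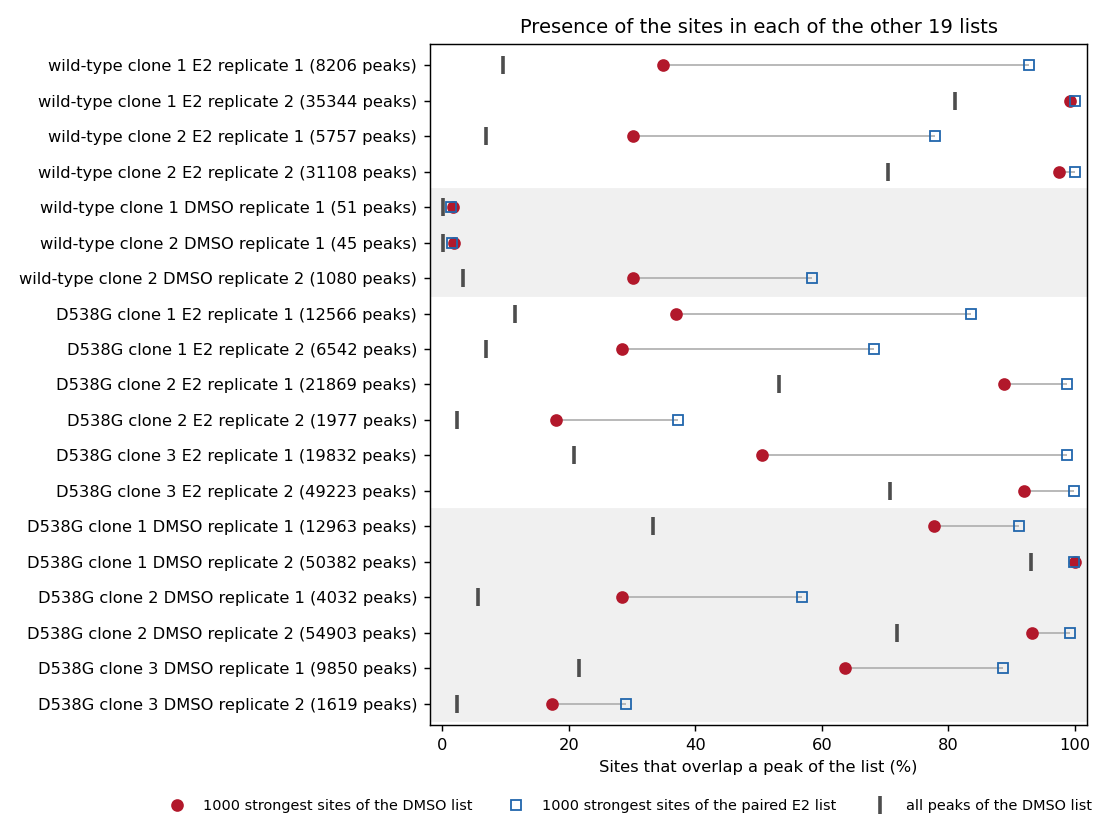
Percent of sites (x axis) that overlap a peak in each of the other 19 lists (y axis, with its number of peaks); red circles are the 1000 strongest sites of wild-type clone 1 DMSO replicate 2, blue squares the 1000 strongest sites of the E2 list of the same clone and replicate, black bars all 29117 peaks of the DMSO list. The red circles range from 1.6% to 100%, lie right of every black bar, and lie left of the blue squares in 15 of the 18 lists that chose neither set.

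In D538G cells without hormone the sites were found in 77.8% of cases in clone 1, replicate 1 (background 33.3%) and in 100% in clone 1, replicate 2 (background 93.1%). Clone 3 held 63.7% in replicate 1 (background 21.7%) and 17.3% in replicate 2 (background 2.35%). Clone 2 held 93.3% in replicate 2 (background 71.8%) and 28.4% in the list labelled DMSO of replicate 1 (background 5.59%). The D538G DMSO lists averaged 63.4% ± 34.0 (SD, n = 6), or 70.4% ± 32.9 (SD, n = 5) without the clone 2 pair of replicate 1, and covered nearly the whole scale.

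In D538G cells with E2 the shares were 36.9% (clone 1, replicate 1; background 11.5%), 28.4% (clone 1, replicate 2; background 6.92%) and 18% (clone 2, replicate 2; background 2.33%). Clone 3 held 50.5% in replicate 1 (background 20.8%) and 91.9% in replicate 2 (background 70.7%). The list of clone 2, replicate 1 labelled E2 held 88.8% (background 53.2%). The mean was 52.4% ± 31.3 (SD, n = 6), or 45.1% ± 28.7 (SD, n = 5) without the list labelled E2. The shares of both treatments overlapped over most of their range.

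Over libraries, the D538G DMSO and the wild-type E2 lists held shares whose means differed by −2.03 percentage points (10 lists), less than the spread between lists (exact permutation, two-sided: p = 0.929, adjusted p = 0.929). Within replicate number 1 it was 24.1 and within replicate number 2 it was −28.2 percentage points (exact permutation p = 0.4 and 0.7), and without the clone 2 pair of replicate 1 it was 4.97 (exact permutation p = 0.873), so its sign is not fixed by these data. Adjusted p-values are over 7 tests by the Benjamini-Hochberg method, and a p given alone is not adjusted. For an alternative setting, its p took the place of the main p of that difference among the 7. Nothing was adjusted for the number of alternatives.

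E2 did not move the share of sites in D538G clones beyond the spread between libraries. The group means differed by −11.0 percentage points (E2 minus DMSO; exact permutation over 6 against 6 lists, two-sided: p = 0.554, adjusted p = 0.776). Taken within the 6 pairs of one clone and replicate number the difference was −11.0 ± 65.0 (SD; exact sign flips, p = 0.688), and the E2 list held more sites in 2 of 6 pairs, clone 2 replicate 1 and clone 3 replicate 2. Without the clone 2 pair of replicate 1 the difference was −25.3 (exact permutation p = 0.222 unpaired and 0.375 paired), and without the clone 3 pair of replicate 2 it was −28.1 (exact permutation p = 0.151 unpaired and 0.312 paired). With 1 library left out it ran from −20.2 (without clone 3 DMSO replicate 2) to −3.68 (without clone 1 DMSO replicate 2), and within replicate number 2 it was −24.1. In wild type the 3 remaining pairs differed by 43.0 ± 21.2 percentage points, with more sites under E2 in each. The replicate 1 DMSO lists of these pairs held 51 peaks (clone 1) and 45 (clone 2). Such lists could hold few of the 1000 sites under any treatment, so no treatment effect is read from those pairs. The wild-type and D538G differences were 54.0 percentage points apart, within the spread between pairs (exact permutation over 84 arrangements, two-sided: p = 0.19). Without the clone 2 pair of replicate 1 they were 68.3 percentage points apart (exact permutation p = 0.125). Both contrasts carry the limit of the short lists. Within each D538G pair one share was at least 63.7% and the other at most 50.5%, and the 2 shares of a pair added up to between 109.2 and 128.4 percentage points. The longer list held the larger share in 5 of the 6 pairs. In clone 3, replicate 1 the E2 list of 19832 peaks held 50.5% and the DMSO list of 9850 held 63.7%, and in clone 1, replicate 1 lists of near equal length (12963 and 12566 peaks) held 77.8% and 36.9%. Shares in lists held to one number of peaks are given below.

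For comparison, the 1000 strongest peaks of the wild-type clone 1 E2 replicate 2 list were taken in the same way. Only part of the 2 sets coincided. Of the 1000 DMSO sites 266 (26.6%) lay at a site of the E2 set, against 4.96% of all peaks of the DMSO list. Of the 1000 E2 sites 258 (25.8%) lay at a DMSO site, against 2.83% of all peaks of the E2 list. The E2 set was not missing from the DMSO list. A peak lay there at 935 of its sites (93.5%), against 58.9% of all peaks of the E2 list. The median rank of these peaks in the DMSO list was the 89.1 percentile by signal (100 is the strongest). Most sites of the E2 set thus had a peak in the DMSO list below its 1000 strongest.

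The DMSO sites were less often seen in the other lists than the E2 set was. Over the 18 lists that chose neither set, the share of DMSO sites with a peak was lower by 21.8 percentage points on average (difference −21.8 ± 19.3, SD, n = 18 lists; two-sided permutation test by sign flips, p = 7e-05, adjusted p = 0.00049), and lower in 15 of 18 lists. The difference was as wide as −57.8 percentage points in wild-type clone 1 E2 replicate 1, where 34.9% of the DMSO sites and 92.7% of the E2 set had a peak. It was positive by at most 0.3 percentage points, in the 2 shortest lists and in D538G clone 1 DMSO replicate 2, where both sets were near a floor or ceiling. Without the clone 2 pair of replicate 1 it was −22.1 (adjusted p = 0.00147, permutation test). Lists of one clone are not independent: over the means of the 5 clones it was −22.5 with the exact permutation p at 0.0625, the smallest that 5 clones allow. One set came from a DMSO list and the other from an E2 list, a choice that can favour lists of the same treatment. In D538G the mean shares of DMSO sites and E2 set were 63.4% and 77.5% over the 6 DMSO lists. Over the 6 D538G E2 lists they were 52.4% and 81.1%. How much of the gap goes with treatment was not tested.

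Between genotypes this gap between the sets differed by less than the spread. It averaged −22.6 ± 25.9 percentage points in 6 wild-type lists and −21.4 ± 16.4 in 12 D538G lists (SD), which are 1.25 apart (exact permutation, two-sided: p = 0.901, adjusted p = 0.929). The 2 shortest wild-type lists were at a floor with a gap of 0.3 each. Without them the genotypes were 12.7 apart (exact permutation p = 0.247), and with lists held to 4000 peaks 10.1 apart (exact permutation p = 0.049, adjusted p = 0.171), the gap being smaller in D538G; both settings were chosen after the data had been seen. In D538G clone 1 the gap was −13.3 (replicate 1) and 0.2 (replicate 2) under DMSO and −46.7 and −39.8 under E2.

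Where a peak was present, its place in the list was described by the rank of its signal and by its width. Medians cover only the sites with a peak, a share that differed between the 2 sets. Median ranks of the overlapping peaks at the DMSO sites ran from the 50 percentile in wild-type clone 1 DMSO replicate 1 to the 91.4 percentile in D538G clone 2 DMSO replicate 2. Compared with the E2 set, ranks were lower by 2.71 percentile points on average (difference −2.71 ± 7.86, SD, n = 18 lists; permutation test, p = 0.16, adjusted p = 0.382) and higher in 6 of 18 lists, which was within the spread. For widths the difference was −54.7 ± 158 bp (SD, n = 18 lists; permutation test, p = 0.164, adjusted p = 0.382), with wider peaks in 9 of 18 lists.

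Wild-type clone 2 E2 replicate 2, which held nearly all sites of both sets, ranked them apart. In that list the DMSO sites had a median rank of 88.5 and a median width of 786 bp, and the E2 set had 98.3 and 1162 bp. In wild-type clone 1 E2 replicate 2 the DMSO sites had 89.3 and 899 bp. The E2 set is by choice the top of that list, so the sets were not compared there. In 6 lists the order was the other way: in D538G clone 3 DMSO replicate 2, for one, the 173 DMSO sites with a peak had a median rank of 69.4 against 62.3 for the E2 set, with widths of 414 and 341.5 bp. There only 17.3% of the DMSO sites and 29.0% of the E2 set had a peak and entered the medians. When each list was held to its 1000 strongest peaks, peaks at the DMSO sites were wider than at the E2 set by 76.1 bp (permutation test, adjusted p = 0.000245), so the direction for width turns with the length of list considered. The share of sites with a peak differed there by −16.6 percentage points, so the medians cover unlike parts of the 2 sets. The rank difference became 0.85 percentile points (permutation test, p = 0.102), and with only the sites found in 1 of the 2 sets it was −13.5 (permutation test, adjusted p = 0.0179).

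**Figure D2:**
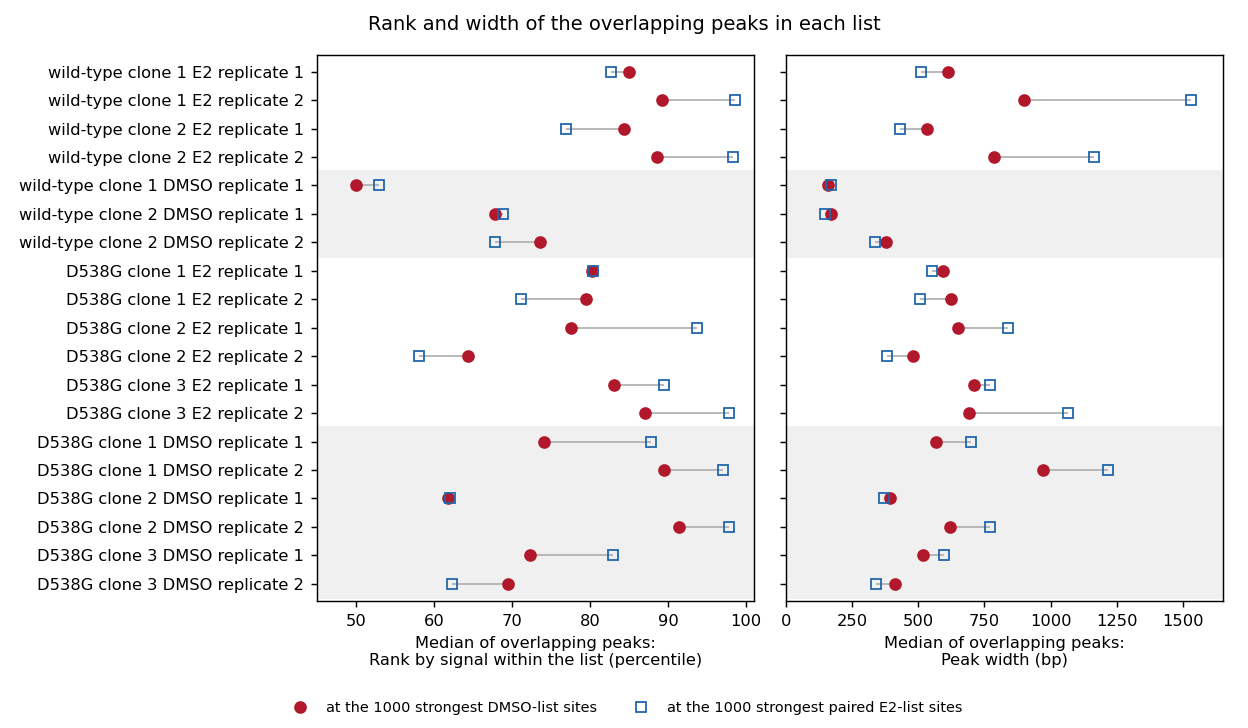
Median rank by signal (left, percentile within the list, 100 strongest; the axis starts at 45) and median width (right, bp) of the peaks that overlap the 1000 DMSO sites (red circles) and the 1000 sites of the E2 set (blue squares) in each list. Long lists such as wild-type clone 2 E2 replicate 2 (88.5 against 98.3) place the blue squares further right in rank. In 6 lists, among them D538G clone 3 DMSO replicate 2 (69.4 against 62.3), the red circles lie further right. Medians cover only the sites with a peak in that list.

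The order of the sites by signal was only loosely shared. In the 17 lists that held more than 18 of the sites, Spearman's rho across the sites with a peak in both lists between the signal in the source list and in another list ran from 0.14 (D538G clone 2 E2 replicate 2, n = 180 sites) to 0.44 (wild-type clone 2 DMSO replicate 2, n = 302 sites). These are descriptions across sites, which share their libraries and the selection on high signal.

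The sites were split by whether they overlapped a peak of wild-type clone 1 E2 replicate 1, the other E2 library of the same clone. That list held 8206 peaks, against 35344 in replicate 2, so the split carries the limit of list length. A peak in the replicate 1 list was found at 349 sites, and 651 sites (65.1%) had none. Over all peaks of the source list 90.4% had none, so the strongest sites lacked it less often than the list as a whole. In the E2 set 73 of 1000 sites (7.3%) had none. The share depended on rank: among the 100 strongest DMSO sites 29% had no such peak, among the next 100 it was 55%, and among ranks 901 to 1000 it was 74%. In the E2 set the same bins gave 0%, 1% and 20%. Going on down the lists, ranks 4501 to 5000 gave 87.8% for the DMSO list and 72.4% for the E2 list.

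In the source list the 651 sites had a median signal of 32.5 (highest 69.6) and a median width of 720 bp, and the 349 sites had 36.2 (highest 124) and 799 bp. In the other lists the 651 sites had a peak in a median of 7 (range 1 to 13), and the 349 sites in a median of 16 (range 8 to 19). The E2 set had a median of 14. Without the clone 2 pair of replicate 1 these medians were 6, 14 and 13 of 17 lists. Of the 349 sites, 254 lay at a site of the E2 set, and of the 651 sites 12 did. The split itself uses one of the lists counted, and no test was made on this gap.

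**Figure D3:**
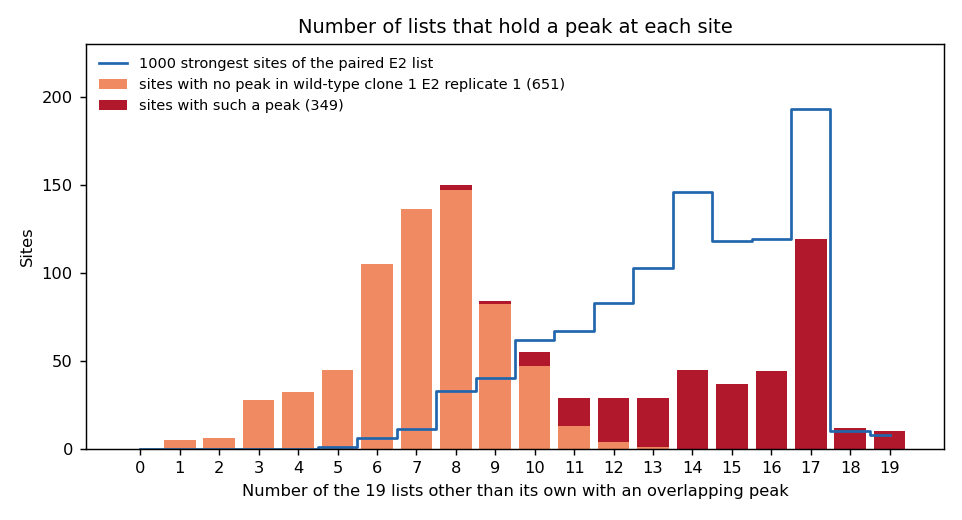
Number of sites (y axis) by the number of the 19 lists other than their own that hold an overlapping peak (x axis); bars stack the 651 DMSO sites without (orange) and the 349 with (red) a peak in wild-type clone 1 E2 replicate 1, and the line is the 1000 strongest sites of the paired E2 list. The bars form 2 groups, around 8 lists and around 17 lists, and the line rises toward 17.

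Sites without the replicate 1 peak were still seen with E2 in wild type. Of the 651, 98.8% had a peak in clone 1 E2 replicate 2 (all peaks of the source list 81.0%). In clone 2 E2 replicate 2 it was 96.2% (all peaks 70.4%), and 626 of the 651 had a peak in both. In clone 2 E2 replicate 1 only 0.31% had one, 2 sites. The peaks that lay there in clone 1 E2 replicate 2 had a median rank of 81.8 and a median width of 711 bp, while those at the 349 sites had 98.5 and 1726 bp. In clone 2 E2 replicate 2 the values were 79.3 and 636.5 bp against 98.4 and 1314 bp. The 651 sites were therefore present but of middle to upper rank where the 349 sites were near the top. Among the other wild-type DMSO lists, clone 2 replicate 2 had a peak at 31 of the 651 sites (4.76%) and at 77.7% of the 349, and the 2 lists of 45 and 51 peaks had none at the 651.

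In D538G cells the 651 sites varied from list to list more than the 349. Under DMSO, clone 1 held 67.4% of them in replicate 1 and 100% in replicate 2, clone 2 held 89.9% in replicate 2, and clone 3 held 45.5% in replicate 1 and 0.15% in replicate 2. Under E2, clone 1 held 5.84% and 0.92%, clone 2 held 0.31% in replicate 2, and clone 3 held 24.3% and 87.6%. The clone 2 replicate 1 lists held 5.68% (labelled DMSO) and 82.8% (labelled E2). For the 349 sites the lowest D538G share was 49.3% and 8 of the 12 lists held over 94%. The share over all peaks of the source list is given above for each of these lists. It was not counted over only the peaks that lacked the replicate 1 peak.

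**Figure D4:**
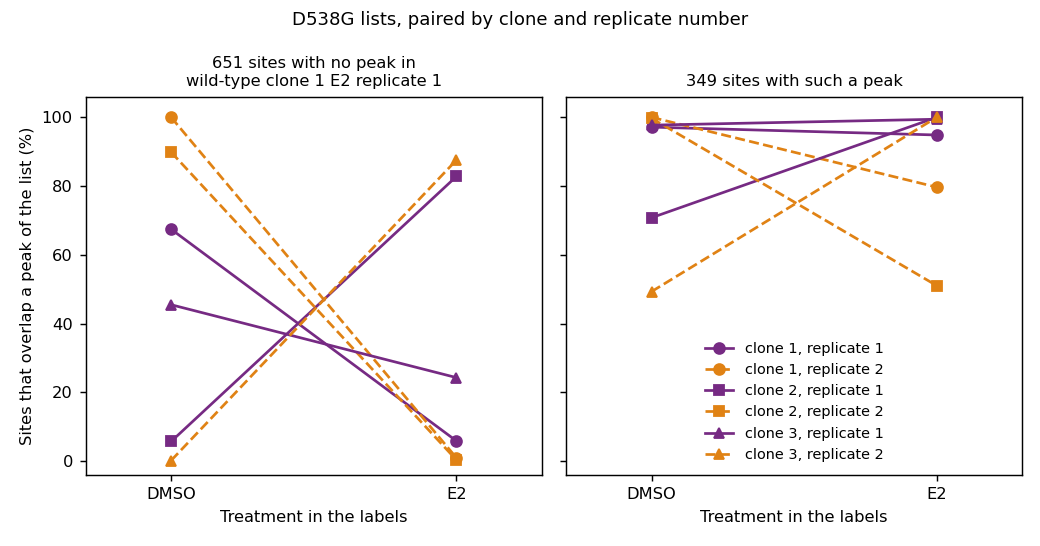
Percent of sites that overlap a peak in the DMSO and the E2 list of each D538G clone and replicate number (lines join the pair; colour and line style give the replicate, marker the clone), for the 651 sites without (left) and the 349 with (right) a peak in wild-type clone 1 E2 replicate 1. On the left 4 pairs go down from DMSO to E2 and 2 go up, clone 2 replicate 1 and clone 3 replicate 2; on the right most values lie near 100%.

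One pair offers lists of near equal length. D538G clone 1, replicate 1 had 12963 peaks under DMSO and 12566 under E2. Of the 651 sites, 402 had a peak in the DMSO list only, 1 in the E2 list only, 37 in both and 211 in neither. Of the 349 sites, 328 had a peak in both. Over all peaks of the source list 33.3% had a peak in this DMSO list and 11.5% in this E2 list, so the direction was also that of the whole list. In clone 3, replicate 1 the E2 list was the longer (19832 peaks against 9850). There 161 of the 651 sites had a peak under DMSO only and 23 under E2 only. Over all peaks of the source list the shares there were 21.7% under DMSO and 20.8% under E2. The DMSO lists of these 2 clones overlapped in the sites they held: 274 sites had a peak in both, which is 62.4% of the 439 in clone 1 and 92.6% of the 296 in clone 3. In replicate 2 the longer list held the sites in each clone, DMSO in clones 1 and 2 and E2 in clone 3 (569 sites under E2 only, 0 under DMSO only). Counted over all 6 pairs, 498 of the 651 sites (76.5%) had a peak in more D538G DMSO than E2 lists and 18 (2.76%) in fewer. Among all 26317 peaks of the source list with no peak in wild-type clone 1 E2 replicate 1 the shares were 62.8% and 6.73%. The imbalance was thus one of all peaks so chosen and not only of the strongest sites. Both sets came from a DMSO list and lacked a peak in an E2 list, a choice that can favour DMSO lists. Without the clone 2 pair of replicate 1 the counts were 624 (95.9%) and 1 (0.15%), against 82.4% and 2.01%. For the 349 sites they were 43 (12.3%) and 75 (21.5%) over 6 pairs, against 14.6% and 36.0% of the 2800 peaks of the list with such a peak. Without that pair they were 87 (24.9%) and 30 (8.60%), against 31.2% and 13.2%.

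To compare lists of one length, each list was cut to the same number of strongest peaks, and shorter lists were left out. Among the 8000 strongest peaks, wild-type clone 1 E2 replicate 2 held 61.6% of the 651 sites and wild-type clone 2 E2 replicate 2 held 57.5%. The D538G DMSO lists followed with 49.9% (clone 1, replicate 2), 45.2% (clone 1, replicate 1), 36.9% (clone 2, replicate 2) and 36.1% (clone 3, replicate 1). D538G E2 lists held 33.3% (clone 2, replicate 1, labelled E2), 27.5% (clone 3, replicate 2), 5.53% (clone 3, replicate 1) and 2.61% (clone 1, replicate 1). Wild-type clone 1 E2 replicate 1 held 0.0% by the choice of these sites. The same lists held between 87.1% and 100% of the 349 sites at that length. At this length the shares at the 651 sites still ran from 0.0% to 61.6%, the lowest being set by the choice of sites. Read depth was not made equal, and what the spread comes from was not tested. The share over all peaks of the source list was not counted in lists cut to 8000 or 4000 peaks. Whether the order of the lists is particular to these sites is therefore not known. With lists held to 4000 peaks, the 651 sites were found less often in 5 D538G E2 than in 5 D538G DMSO lists, with a difference of −9.80 percentage points (exact permutation test, p = 0.0397, adjusted p = 0.139), which did not pass after adjustment. For all 1000 sites it was −8.44 (exact permutation p = 0.0714, adjusted p = 0.25). Without the clone 2 pair of replicate 1, 4 lists stood against 4 and the differences were −13.9 for the 651 sites and −13.6 for all 1000, with no overlap between the treatments and the smallest exact permutation p that this design allows (0.0286, adjusted p = 0.1, for either). These comparisons at 4000 peaks were chosen after the data had been seen. The 651 sites were, by choice, strong in a DMSO list and without a peak in an E2 list. Such a choice can itself favour DMSO lists, so no treatment effect is read from these differences.

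**Figure D5:**
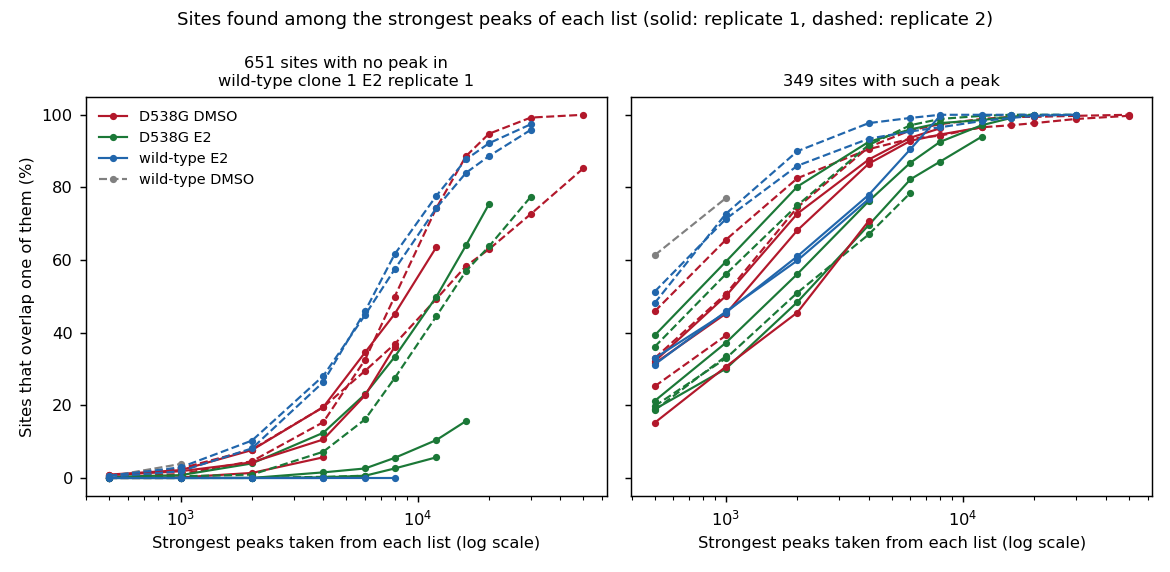
Percent of the 651 sites (left) and of the 349 sites (right) that overlap one of the strongest peaks of a list, against the number of strongest peaks taken (log axis); each line is 1 list, coloured by group, solid for replicate 1 and dashed for replicate 2. At 8000 peaks the lines on the left run from 0.0% to 61.6% and those on the right from 87.1% to 100%.

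Replicate number was looked at because the source list is a replicate 2 list. Over the 9 other pairs of one clone and treatment, replicate 2 lists held 18.1 ± 50.2 percentage points more of the 1000 sites (SD, n = 9 pairs; exact two-sided permutation test by sign flips, p = 0.297, adjusted p = 0.52), with more in 6 of 9 pairs, which was within the spread. Without the clone 2 pair of replicate 1 the gain was 24.1 (7 pairs, exact permutation p = 0.172). In wild-type E2 the gain was 64.3 percentage points in clone 1 and 67.3 in clone 2. In D538G clone 2 E2 the list labelled E2 of replicate 1 held 70.8 more. In each of these pairs the longer list held the larger share.

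Single sites from either side of the split by the wild-type clone 1 E2 replicate 1 peak are described next. The site of highest signal, chr10:552437-553704 (1268 bp, signal 124), had a peak in all 19 other lists. Its rank was at least at the 90.4 percentile in every list, and its peak reached 4966 bp in wild-type clone 1 E2 replicate 2 against 1490 bp in replicate 1. The next, chr1:6482786-6486085 (3300 bp, signal 103.7), also had a peak in all 19, with ranks of 74.5 and 80.0 in the 2 shortest lists and at least 84.5 elsewhere. The site ranked 10, chr2:100252901-100253549 (signal 67.4), was the next of the 10 sites found in all lists, and its rank ran from 69.5 in D538G clone 3 E2 replicate 1 to 99.5 in wild-type clone 2 DMSO replicate 2. These 3 sites belonged to the E2 set too.

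The sites ranked 3 to 5 were missing only from 1 or both of the 2 shortest lists. The third, chr1:17274711-17275294 (signal 77.6), had a peak in 17 lists, and its rank dropped to 41.6 in the D538G clone 2 replicate 1 list labelled DMSO and to 43.9 in D538G clone 3 DMSO replicate 2. The fourth, chr1:16950468-16951094 (signal 74.9, 18 lists), stood at the 99.9 percentile of wild-type clone 2 DMSO replicate 2. The fifth, chr3:196255379-196256042 (signal 73.0, 18 lists), ranked above the 95.5 percentile in 17 of its 18 lists and at 47.1 in the list of 51 peaks. The sites ranked 4 and 5 were not in the E2 set.

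The strongest site without a peak in wild-type clone 1 E2 replicate 1 was chr1:1309846-1311047 (1202 bp, signal 69.6, rank 8), found in 8 lists. Its rank was 95.8 and 94.2 in the wild-type E2 replicate 2 lists of clones 1 and 2. In D538G DMSO it was 45.7 and 69.0 in clone 1 (replicates 1 and 2) and 81.4 in clone 2, replicate 2. In D538G it also had a peak in the list labelled E2 of clone 2, replicate 1 (79.5) and in clone 3 E2 replicate 2 (56.2). A weak one at the 19.03 percentile lay in wild-type clone 2 DMSO replicate 2.

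The site chr20:5099837-5100922 (signal 61.7, rank 16) was found in 11 lists. In D538G DMSO its rank was 96.4 and 97.6 in clone 1, 97.8 in clone 2 replicate 2, 93.8 in clone 3 replicate 1 and 17.4 in the list labelled DMSO of clone 2 replicate 1. In D538G E2 it was 41.9 in clone 1 replicate 1, 79.7 and 95.4 in clone 3 (replicates 1 and 2) and 91.6 in the list labelled E2. The site chr20:30556173-30556574 (402 bp, signal 58.2, rank 22) was found in 9 lists. Its rank was 93.8 or above in the 4 D538G DMSO lists that held it, and 95.0 (labelled E2), 80.9 and 95.5 in 3 D538G E2 lists. Its peaks measured 366 to 576 bp in the lists that held it. The sites chr1:8021173-8022111 (signal 56.4, rank 26) and chr1:6305118-6305799 (signal 56.0, rank 27) were each found in the same 7 lists: both wild-type E2 replicate 2 lists, 3 D538G DMSO lists and 2 lists labelled D538G E2. The first ranked only 7.81 in D538G clone 1 DMSO replicate 1 and 0.233 in the list labelled E2 of clone 2, replicate 1. In the other lists it ranked at least 85.5. The second had its lowest rank, 57.5, in D538G clone 1 DMSO replicate 1.

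At the other end stood sites with no peak in another wild-type list. The one found in most D538G lists, chr8:142726168-142726523 (356 bp, signal 32.0, rank 637), had a peak in 4 D538G DMSO lists at ranks of 93.5, 96.2, 99.0 and 95.2, and in 3 D538G E2 lists at 91.0, 86.3 and 93.8. It was thus a high-ranking site in D538G in each list that held it. Its widths there ran from 357 to 491 bp. A further 5 sites, named after their values were seen, had a single peak elsewhere, each in D538G clone 1 DMSO replicate 2: chr6:53036691-53036985, chr1:156066419-156066793, chr1:26324563-26325010, chr19:2648578-2648904 and chr13:111108295-111108617. Their signals in the source list lay between 29.7 and 33.4 and their ranks in the D538G list between 50.1 and 80.3.

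Finally, sites shared by all libraries of a group were counted. A peak in all 6 D538G DMSO lists was found at 163 sites (16.3%, against 2.06% of all peaks of the source list), and a peak in all 6 D538G E2 lists at 175 (17.5%, against 2.25%). All of these belonged to the 349 sites with a peak in wild-type clone 1 E2 replicate 1. Over the 5 lists without the clone 2 pair of replicate 1 the counts were 172 (against 2.26%; 1 of them outside the 349) and 175 (against 2.25%). In the E2 set the counts were 276 and 364 over 6 lists each, and the share over all peaks of the E2 list was not counted.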

How the data were processed

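Binding of FLAG-tagged ESR1 was measured by ChIP-seq in 20 libraries of Ishikawa clones, with 1 deposited peak list each, called per library and in the narrowPeak layout. The submitters' processing notes name Bowtie, MACS2 and the build hg19 without versions or roles. The signal value of a peak and its −log10 p and −log10 q are the authors' own; the deposited score column, the −log10 q and the summit offset entered no reported value except that summits entered an alternative. What the signal is relative to is not given in the sources used here, so it only ranked peaks within a list. The lowest deposited −log10 p was 10.0. The peak names of the D538G clone 1 and clone 2 replicate 1 lists hold the word Input and the others do not.

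Coordinates are as deposited, written 1-based. Tables of GRCh38.p14 were at hand and not used for coordinates, so no site was assigned to a gene and no sequence is shown; the planned motif and target gene descriptions were not run. Sites were ranked in Python 3.11.15 (numpy 2.4.6, pandas 2.3.3, scipy 1.17.1). A site was present in a list at an overlap of at least 1 bp. Its rank was the percentile of the best overlapping peak's signal in that list, and its width that of the same peak; medians needed at least 5 sites. Overlaps were checked against bedtools 2.31.1 (same counts in 19 of 19 lists) and on a simulated list with planted sites. The permutation and sign-flip tests were checked only on small typed sets of values with a known p.

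Differences were tested over libraries by exact permutation, or by sign flips with 100000 resamples from 10 lists on. The 7 p-values were adjusted together (Benjamini-Hochberg, threshold 0.05). The p of an alternative was adjusted in place of its main p among the same 7, without adjustment for the number of alternatives. The D538G E2 and DMSO lists were tested unpaired. The pairing by clone and replicate number, which comes from the shared clone, was an alternative; deviations in share of the paired lists correlated at −0.982 over 6 D538G pairs. Depth is unknown. Alternatives were the size of the set, its ranking, the overlap rule, list length, a −log10 p of at least 20, replicate number, clone means and each library left out. The sites, sets and regions named were chosen with earlier results of these data known. The regions named are, by signal, the 5 strongest, 5 without a replicate 1 E2 peak, up to 3 in all lists, those in most D538G and no other wild-type lists, and those at the limit.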

Additional observations from a re-analysis of the deposited data

How the results depend on the processing

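Of 233 alternatives to the 7 tested differences, 209 kept their sign and their call, 20 turned a direction, 3 lost the call and 1 gained one without a turn. One of the 20 that turned, width with lists held to 1000 peaks, also passed the threshold (adjusted p = 0.000245, permutation test). The lower share of DMSO sites than of the E2 set (−21.8 percentage points) kept its sign throughout. It lost the call within replicate number 1 (−27.7, adjusted p = 0.0534, permutation test), within replicate number 2 (−14.4, exact permutation, adjusted p = 0.109) and over clone means (−22.5, exact permutation, adjusted p = 0.382), each with fewer values than the 18 lists. Its values with 1 library left out ran from −23.1 to −19.6.

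The D538G DMSO minus wild-type E2 share (−2.03) turned to 24.1 within replicate number 1 and to 4.97 without the D538G clone 2 replicate 1 pair. With 1 library left out it ran from −13.8 to 9.22. The D538G E2 minus DMSO share (−11.0) turned to 2.10 within replicate number 1 and to 1.72 over the 349 sites. With 1 library left out it ran from −20.2 to −3.68, within replicate number 2 it was −24.1, and without the D538G clone 3 replicate 2 pair it was −28.1. The genotype difference of the preference (1.25) turned to −2.42 with 2000 sites, −0.342 by summits, −2.10 with a −log10 p of at least 20 and −2.39 within replicate number 1, was 12.7 without the lists of 45 and 51 peaks and 10.1 at 4000 peaks, and ran from −5.79 to 5.83 with 1 library left out. Rank turned to 0.855 and width to 76.1 bp with lists held to 1000 peaks, and to 1.18 and 20.7 bp at 4000. Without the D538G clone 2 replicate 1 pair the rank difference was −2.02, the width difference −51.2 bp and the genotype difference 0.82. Rank passed the threshold with sites of 1 set only (−13.5). For turns in sign the cause was not tested.

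With a replicate block on clone and number no call changed: the lower share (−21.8) had an exact permutation p of 0.00391 (adjusted 0.0273), and without the block the replicate 2 minus replicate 1 difference (18.1) had an exact permutation p of 0.26. The alternatives over the 651 or 349 sites, at 4000 peaks, without the clone 2 or the clone 3 pair and without the lists of 45 and 51 peaks were chosen after seeing the data. Read depth is unknown, so an absent peak cannot be told apart from too few reads, and list lengths of 45 to 54903 peaks limit every share.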
